A study of Homo sapiens with 36 samples.

Results

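The C/EBP transcription factors and the host gene of the microRNA miR-223 were followed across 12 conditions of THP-1 cells, a human monocytic leukaemia cell line. The 6 genes were MIR223HG, CEBPA, CEBPB, CEBPD, CEBPE and CEBPZ, of 57500 gene rows in the count files, and all 6 had enough reads to be tested. They were chosen by name and from a measured value, since MIR223HG is lower at 10% CO2 in NR4A2-depleted cells in these data. MIR223HG in the shNR4A2 cells is therefore given as a description, and so are all 6 genes in the comparison of 10% with 5% CO2 in those cells.

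Cells had been transduced with lentiviral particles carrying a non-targeting short hairpin RNA (shNT) or a hairpin against NR4A2 (shNR4A2) or NR4A3 (shNR4A3), which encode nuclear receptors of the NR4A family. Each line was kept for 4 h in buffered medium at 5% CO2 or at 10% CO2, called buffered hypercapnia. In the LPS-stimulated state, 2.5 µg/ml of LPS, a bacterial endotoxin, was present for the last 2 h, and the other cells were basal. Every condition had 3 libraries. The study describes individual experiments, and the labels tie no library to a separate culture, so the p-values measure the spread between these samples. Each knockdown is represented by a single line, so that an effect of the depleted gene and any other property of that line cannot be told apart.

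C/EBP proteins are basic leucine zipper factors that bind DNA as dimers and direct the formation of myeloid cells. C/EBPα drives commitment to the granulocyte and monocyte lineages, C/EBPβ and C/EBPδ act in inflammatory gene expression, and C/EBPε acts in late granulocyte differentiation. CEBPZ carries the family's symbol but encodes a CCAAT-binding protein without the leucine zipper. MIR223HG is the long non-coding transcript from which miR-223 is processed, a microRNA abundant in myeloid cells, and its transcription is known to depend on C/EBPα and PU.1.

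The mature arms of miR-223 are shown because they are the product of the gene on which the choice rests. Capitals mark the seed, bases 2 to 8, which pairs with target transcripts. Both were taken from RefSeq on GRCh38.p14, and each is written 5′ to 3′.
hsa-miR-223-5p: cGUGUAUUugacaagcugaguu
hsa-miR-223-3p: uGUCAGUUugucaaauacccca
The 5p arm lies at chrX:66018895-66018916 and the 3p arm at chrX:66018937-66018958, both on the plus strand. None of the other mature sequences in a table of 2545 shared either seed. The hairpin precursor of 110 bases, at chrX:66018870-66018979, lies within the last exon of MIR223HG, and both arms are in capitals here.
MIR223 hairpin: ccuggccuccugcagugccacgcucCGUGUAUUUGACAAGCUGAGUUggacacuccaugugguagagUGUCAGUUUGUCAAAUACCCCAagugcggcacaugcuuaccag
The libraries were made from polyadenylated RNA, so they measure the host transcript. The mature microRNA was not analysed here.

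In the GRCh38 annotation, MIR223HG (ENSG00000274536) spans positions 66015461 to 66020422 of the plus strand of chromosome X. It shares no exonic base with another counted gene, and the MIR223 hairpin has no count of its own. CEBPA (ENSG00000245848) lies on the minus strand of chromosome 19, from 33299934 to 33302564, and 43.4% of its exonic bases overlap antisense genes. CEBPB (ENSG00000172216) is on the plus strand of chromosome 20, from 50190734 to 50192689, and shares 11.8% of its exonic bases with CEBPB-AS1. CEBPD (ENSG00000221869) is on the minus strand of chromosome 8, from 47736909 to 47739086, with no shared base. CEBPE (ENSG00000092067) is on the minus strand of chromosome 14, from 23117304 to 23119616. CEBPZ (ENSG00000115816) is on the minus strand of chromosome 2, from 37201612 to 37231713, with 23.2% of its exonic bases shared with genes that include CEBPZOS. The sources used here do not give the strand setting of the counting, so reads of overlapping genes on opposite strands cannot be told apart.

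Total counts per library ranged from 16171161 to 23929138, with a median of 19639071. CEBPE was the gene with the fewest reads, 3 to 78 per library, and the other 5 genes had at least 260. The general leukocyte marker PTPRC was detected throughout (condition means 74.5 to 120 TPM, a level scaled for gene length and library depth). So were the myeloid markers SPI1 (499.7 to 1048 TPM) and CD33 (21.0 to 41.9 TPM). Of 9 markers of other cells, ELANE, a granulocyte protease gene, was abundant at 2895 to 4286 TPM, whereas CD3E, MS4A1 and HBB stayed at or under 0.22 TPM. In comparison with shNT cells, NR4A2 was lower in shNR4A2 cells by 0.91 to 1.67 on the log2 scale, and the difference passed the test in all 4 states. NR4A3 was lower in shNR4A3 cells in 3 of 4 states and did not pass the test at 10% CO2 in the basal state (log2 fold change −0.39, adjusted p = 0.735), where its TPM was 0.185 to 0.231 in shNR4A3 and 0.176 to 0.374 in shNT cells.

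MIR223HG was measured at moderate levels in all 12 conditions, and its mean TPM was lower at 10% than at 5% CO2 and lower with LPS than without in every line. In basal shNT cells it was 147, 137 and 92.3 TPM at 5% CO2 and 63.0, 63.1 and 95.5 TPM at 10% CO2. In LPS-stimulated shNT cells it was 89.4, 66.1 and 57.9 TPM at 5% CO2 and 34.4, 35.3 and 45.1 TPM at 10% CO2. Replicate 3 was the exception in the basal state, where its value at 10% CO2 was above that at 5% CO2, whereas the groups did not overlap after LPS.

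In basal shNR4A2 cells MIR223HG was 108, 108 and 108 TPM at 5% CO2 and 49.2, 69.3 and 58.8 TPM at 10% CO2. In LPS-stimulated shNR4A2 cells it was 47.2, 50.9 and 39.7 TPM at 5% CO2 and 27.6, 25.6 and 28.8 TPM at 10% CO2. These are the values on which the choice rests, and in both states all 3 libraries at 10% CO2 lay below all 3 at 5% CO2. The log2 fold changes were −0.82 (SE 0.13) in the basal state and −0.69 (SE 0.13) with LPS, given without a test. Across all genes, 0.0113% passed the test for CO2 in basal shNR4A2 cells and 0.198% after LPS, and nothing is read from these shares here.

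In basal shNR4A3 cells MIR223HG was 134, 108 and 64.3 TPM at 5% CO2 and 59.9, 56.9 and 74.7 TPM at 10% CO2. In LPS-stimulated shNR4A3 cells it was 81.6, 94.6 and 45.4 TPM at 5% CO2 and 46.8, 45.5 and 36.7 TPM at 10% CO2. Replicate 3 again stood low at 5% CO2 in both states, and the CO2 groups overlapped.

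The order of the condition means ran from 125 ± 29.0 TPM (SD, n = 3) in basal shNT cells at 5% CO2 to 27.3 ± 1.63 TPM (SD, n = 3) in LPS-stimulated shNR4A2 cells at 10% CO2. Between them stood basal shNR4A2 (108) and shNR4A3 (102) cells at 5% CO2, then LPS-stimulated shNR4A3 cells at 5% CO2 (73.9), basal shNT cells at 10% CO2 (73.8) and LPS-stimulated shNT cells at 5% CO2 (71.1). Basal shNR4A3 (63.8) and shNR4A2 (59.1) cells at 10% CO2 came next, then LPS-stimulated shNR4A2 cells at 5% CO2 (45.9) and LPS-stimulated shNR4A3 (43) and shNT (38.3) cells at 10% CO2. Neighbours in this order overlapped in their libraries, apart from the final step, where the shNR4A2 libraries lay below the shNT libraries at 10% CO2 with LPS. In these whole-culture RNA samples, fewer cells of a kind and less RNA per cell cannot be told apart.

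**Figure D1:**
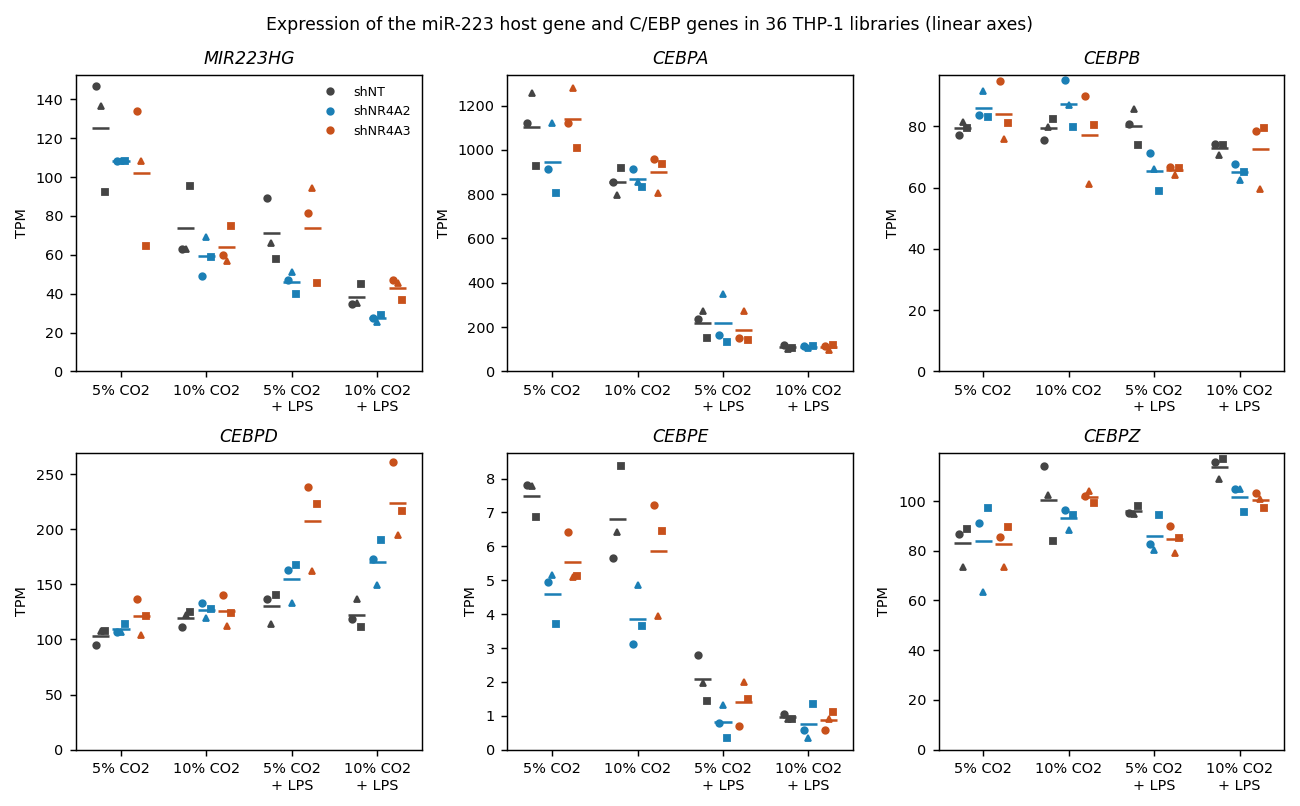
TPM of the 6 genes in each of the 36 libraries, with a linear axis from 0 in each panel, colours for the lines, circles, triangles and squares for replicates 1, 2 and 3, and a short line at the mean of each condition. CEBPA falls from 796.8 to 1281 TPM in basal libraries to 96.8 to 351 TPM in LPS libraries. CEBPB lies between 59.0 and 95.2 TPM over all libraries.

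The first comparison asked whether MIR223HG responded to buffered hypercapnia in the lines that were not used to choose it. A gene was called changed at an adjusted p under 0.05 in edgeR's quasi-likelihood test, with Benjamini-Hochberg adjustment over all 17720 genes tested. In shNT cells MIR223HG fell with LPS present (log2 fold change −0.76, SE 0.15, adjusted p = 0.0158) and had a change of −0.68 (SE 0.20, adjusted p = 0.16) in the basal state. In shNR4A3 cells the values were −0.66 (SE 0.28, adjusted p = 0.312) in the basal state and −0.72 (SE 0.26, adjusted p = 0.21) with LPS, neither of which passed.

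With shNT and shNR4A3 cells in the same model and the line as a term, MIR223HG fell at 10% CO2 by 0.67 on the log2 scale in the basal state (SE 0.19, adjusted p = 0.0489). With LPS it fell by 0.73 (SE 0.17, adjusted p = 0.00907). The basal call was lost with the replicate number as a block (−0.64, adjusted p = 0.0946), without a filter on low counts (−0.67, adjusted p = 0.194), and without any 1 of 9 of the 12 libraries (adjusted p = 0.0653 to 0.104) and kept only without replicate 3 of shNT at 5% or 10% CO2 or of shNR4A3 at 5% CO2. Without the 4 libraries numbered 3 in each state, an alternative chosen after seeing the data, the change was −1.05 (SE 0.09, adjusted p = 3.04e-05) in the basal state and −0.91 (SE 0.10, adjusted p = 0.000198) with LPS. The difference between the responses of shNR4A3 and shNT cells was 0.02 on the log2 scale in the basal state (95% interval −0.78 to 0.81) and 0.06 with LPS (−0.62 to 0.73). All of these comparisons share libraries with one another.

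Single libraries decided several of these values. MIR223HG passed in basal shNT cells without replicate 3 at 5% CO2 (adjusted p = 0.0475), in basal shNR4A3 cells without replicate 3 at 5% CO2 (0.0197) and in LPS-stimulated shNR4A3 cells without replicate 3 at 5% CO2 (0.0153). The call in LPS-stimulated shNT cells was lost without replicate 2 at 10% CO2 (adjusted p = 0.081).

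Among the C/EBP factors, CEBPA fell and CEBPZ rose at 10% CO2 in the pooled model, in both states. Of the 6 genes, 3 were called in the basal state and 3 with LPS, 1 higher and 2 lower each time. The share of all genes called was 11.5% without LPS, made up of 6.24% that rose and 5.26% that fell. After LPS it was 22.8%, of which 11.8% of genes rose and 10.9% fell. Within single lines, 2 of 6 were called in LPS-stimulated shNT cells (8.19% of all genes). None of 6 was called by edgeR in basal shNT cells (0.615% of all genes), in basal shNR4A3 cells (1.13%) or in LPS-stimulated shNR4A3 cells (2.13%). At an unadjusted p under 0.05 these last 3 comparisons gave 4, 2 and 3 of the 6 genes, beside 2645, 2956 and 3377 of all 17720 genes. DESeq2 called 1, 1 and 2 of the 6, beside 358, 550 and 885 among all genes with a read.

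CEBPA fell at 10% CO2 by 0.29 on the log2 scale in the pooled basal comparison (SE 0.08, adjusted p = 0.0216) and by 0.78 with LPS (SE 0.17, adjusted p = 0.00899). The basal call was lost without replicate 2 of shNT at 5% CO2, of shNT at 10% CO2 or of shNR4A3 at 10% CO2 (adjusted p = 0.0535 to 0.0646). In LPS-stimulated shNT cells its level was 236, 273 and 149 TPM at 5% CO2 and 117, 99.7 and 107 TPM at 10% CO2, a change of −0.88 (SE 0.20) that stood just outside the threshold (adjusted p = 0.0517). Without replicate 3 at 5% CO2 it passed (adjusted p = 0.000666). The libraries of the CO2 groups did not overlap in any of the LPS-stimulated lines, while the values in LPS-stimulated shNR4A2 cells, given without a test, were 166, 351 and 132 TPM at 5% CO2 and 114, 106 and 116 TPM at 10% CO2.

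CEBPZ, whose product acts in ribosome biogenesis, moved in the opposite direction. Its log2 fold change at 10% CO2, an increase in both states, was 0.35 (SE 0.08, adjusted p = 0.0065) in the pooled basal comparison and 0.34 (SE 0.06, adjusted p = 0.000538) with LPS. In LPS-stimulated shNT cells it rose from 95.3, 94.6 and 97.8 TPM to 116, 109 and 117 TPM (log2 fold change 0.38, SE 0.07, adjusted p = 0.00931). In basal shNT cells it was 86.9, 73.6 and 88.6 TPM at 5% CO2 and 114, 102 and 84.1 TPM at 10% CO2, and the change of 0.36 (adjusted p = 0.169) passed only without replicate 3 at 10% CO2 (adjusted p = 0.04), among the single libraries left out.

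The other factors gave no call for CO2 in any tested comparison. CEBPB had a pooled log2 fold change of 0.00 in the basal state (95% interval −0.18 to 0.17) and 0.10 with LPS (−0.05 to 0.25). CEBPD had 0.19 (SE 0.08, adjusted p = 0.161) and 0.11 (SE 0.14, adjusted p = 0.633). CEBPE had 0.02 in the basal state and −0.81 (SE 0.30, adjusted p = 0.0602) with LPS, and its LPS counts were low. The CEBPE value passed without replicate 1 of LPS-stimulated shNR4A3 cells at 5% CO2 (adjusted p = 0.0245) or replicate 3 at 10% CO2 (adjusted p = 0.048).

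**Figure D2:**
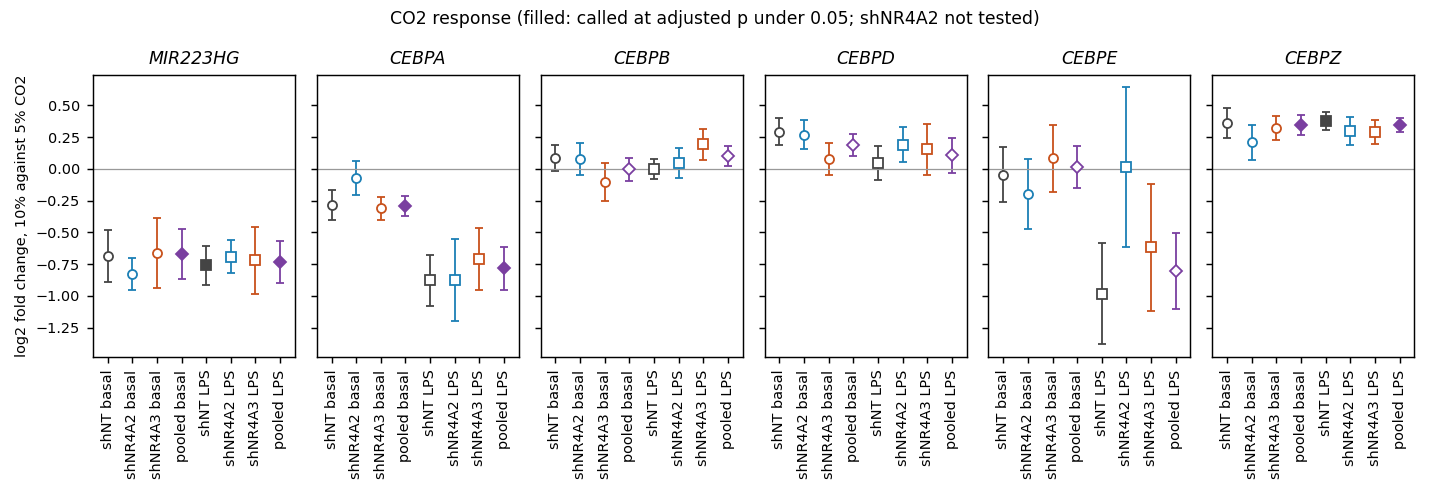
Log2 fold change from 5% to 10% CO2 (vertical axis, bars ± SE) for each gene in the basal state (circles) and with LPS (squares), by line and pooled over shNT and shNR4A3 (diamonds), where filled symbols are called at an adjusted p under 0.05 and shNR4A2 was not tested. MIR223HG lies between −0.82 and −0.66 throughout, and CEBPA lies lower with LPS (−0.88 to −0.71) than without (−0.31 to −0.07).

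The second comparison asked how the genes answered 2 h of LPS. CEBPA and CEBPE fell and CEBPD rose in all 6 pairings of line and CO2 level, and CEBPB was called in none. Of the 6 genes, 4 were called in shNT cells at 5% CO2 (22.9% of all genes called) and 5 at 10% CO2 (31.2%). In shNR4A2 cells, where MIR223HG was not tested, 3 of 5 were called at 5% CO2 (18.2%) and 4 of 5 at 10% CO2 (35%). In shNR4A3 cells 3 of 6 were called at 5% CO2 (25.3%) and 4 of 6 at 10% CO2 (42.1%). Fold changes with LPS are relative to the median gene, since scaling by library size alone moved the median of all genes to between −0.25 and −0.18 on the log2 scale.

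CEBPA was the most abundant of the C/EBP genes in basal cells on the TPM scale. In shNT cells at 5% CO2 it was 1120, 1258 and 928 TPM in the basal state and 236, 273 and 149 TPM with LPS. At 10% CO2 it was 853.5, 797 and 917 TPM in basal shNT cells and 117, 99.7 and 107 TPM with LPS. The basal and LPS libraries were far apart at both CO2 levels, and the fall was 4.35-fold at 5% CO2 (log2 fold change −2.12, SE 0.25, adjusted p = 0.00239) and 6.55-fold at 10% CO2 (−2.71, SE 0.09, adjusted p = 2.81e-13).

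In shNR4A2 cells CEBPA was 912, 1120 and 804 TPM in the basal state at 5% CO2 and 166, 351 and 132 TPM with LPS. The fall was 3.71-fold there (adjusted p = 0.00423), and at 10% CO2, from 914, 855 and 831 TPM to 114, 106 and 116 TPM, it was 6.38-fold (adjusted p = 7.5e-11). Replicate 2 had the highest LPS value at 5% CO2 in all 3 lines. In shNR4A3 cells CEBPA fell 5.26-fold at 5% CO2 (adjusted p = 0.000252), from 1121, 1281 and 1010 TPM to 150, 271 and 141 TPM. At 10% CO2 in the same cells it fell 6.80-fold (adjusted p = 6.78e-10), from 958, 806 and 935 TPM to 113, 96.8 and 119 TPM. Every LPS library of every line therefore lay below every basal library.

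CEBPE fell by 1.63 to 2.56 on the log2 scale in the 6 comparisons (SE 0.28 to 0.43, adjusted p = 4.37e-06 to 0.00209). Its level in shNT cells at 5% CO2 was 7.80, 7.77 and 6.85 TPM in the basal state and 2.80, 1.97 and 1.45 TPM with LPS. In shNT cells at 10% CO2 it was 5.65, 6.44 and 8.36 TPM in the basal state and 1.05, 0.895 and 0.905 TPM with LPS. These levels rest on 24 to 78 reads in basal libraries and 3 to 25 with LPS, and in all 6 comparisons the basal and LPS libraries did not overlap.

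The promoters of CEBPA and CEBPE are shown because these are the genes that fell together with LPS. They were taken from RefSeq on GRCh38.p14, 250 bases before to 50 bases after the listed start, and are written 5′ to 3′ on the minus strand, the strand of each gene. Capitals mark GAGGAA, the core recognised by PU.1.
CEBPA promoter: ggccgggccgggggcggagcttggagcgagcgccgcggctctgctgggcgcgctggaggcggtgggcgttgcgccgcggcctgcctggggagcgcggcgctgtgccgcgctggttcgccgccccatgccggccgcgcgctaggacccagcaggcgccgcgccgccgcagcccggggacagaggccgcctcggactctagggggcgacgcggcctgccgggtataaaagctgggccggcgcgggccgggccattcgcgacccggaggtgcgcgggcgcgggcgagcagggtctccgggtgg
CEBPE promoter: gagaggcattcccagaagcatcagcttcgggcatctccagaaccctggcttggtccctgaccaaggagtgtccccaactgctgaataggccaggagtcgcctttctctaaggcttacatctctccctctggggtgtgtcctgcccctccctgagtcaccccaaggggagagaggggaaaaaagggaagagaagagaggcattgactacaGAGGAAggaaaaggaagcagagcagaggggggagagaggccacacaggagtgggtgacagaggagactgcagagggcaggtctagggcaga
The CEBPA window, chr19:33302485-33302784, had a GC content of 80.7% and held none of the 3 motifs searched on both strands, TTGCNNAA (a C/EBP site), GAGGAA and CCAAT. The CEBPE window, chr14:23119206-23119505, had a GC content of 57.7% and held GAGGAA once, beginning 41 bases before the start. Of 35116 promoter windows of this length in the table, 10.5% held TTGCNNAA, 27.9% GAGGAA and 34.6% CCAAT. Entries were found for 4 of the 6 genes. In the others of these, CEBPB held CCAAT at a single site that its 2 overlapping windows share, and CEBPZ held GAGGAA once, 223 bases before its start. These matches are descriptions of letters in the windows.

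CEBPD, induced early in inflammatory responses, rose in all 6 comparisons. In shNT cells at 5% CO2 it was 94.8, 108 and 107 TPM in the basal state and 136, 114 and 140 TPM with LPS (log2 fold change 0.56, SE 0.11, adjusted p = 0.00119). In shNT cells at 10% CO2 it was 111, 122 and 125 TPM in the basal state and 118, 137 and 111 TPM with LPS, where the change was 0.31 (SE 0.12, adjusted p = 0.0476). That call was lost without any 1 of 5 of the 6 libraries (adjusted p = 0.0669 to 0.291), all but LPS replicate 3, and with scaling by library size only (0.09, adjusted p = 0.568).

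In shNR4A2 cells CEBPD rose by a log2 fold change of 0.77 (SE 0.14, adjusted p = 0.00105) at 5% CO2 and 0.71 (SE 0.12, adjusted p = 0.000207) at 10% CO2. In shNR4A3 cells at 5% CO2 it rose from 137, 104 and 122 TPM to 238, 162 and 223 TPM (1.01, SE 0.19, adjusted p = 0.0044). At 10% CO2 in shNR4A3 cells it rose from 141, 113 and 124 TPM to 261, 195 and 216 TPM (1.11, SE 0.14, adjusted p = 0.000204). Replicate 2 had the lowest shNR4A3 value in each of these 4 conditions.

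CEBPZ passed the test in 4 of the 6 LPS comparisons, with log2 fold changes of 0.44 and 0.45 in shNT cells, 0.41 in shNR4A2 cells at 10% CO2 and 0.25 in shNR4A3 cells at 10% CO2, and with library size scaling only the first of these 4 remained called (0.25, adjusted p = 0.0361). In the other 2 comparisons, at 5% CO2, it had 0.31 (adjusted p = 0.195) in shNR4A2 cells and 0.26 (adjusted p = 0.133) in shNR4A3 cells. Same-numbered libraries deviated together there, and with the replicate number as a block both were called (adjusted p = 0.0268 and 0.0133). Without replicate 3 of basal shNR4A3 cells at 10% CO2 the call in shNR4A3 cells at 10% CO2 was lost (adjusted p = 0.0685), and without replicate 2 of LPS-stimulated shNR4A3 cells at 5% CO2 the value there was called (adjusted p = 0.0289).

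CEBPB stood between 61.3 and 95.2 TPM in basal libraries and between 59.0 and 85.7 TPM with LPS. Its log2 fold changes were 0.24 and 0.15 in shNT cells, −0.13 and −0.14 in shNR4A2 cells and −0.13 and 0.19 in shNR4A3 cells, at 5% and 10% CO2, and none was called. Its direction depends on the scaling, since with library size only these became 0.06, −0.07, −0.35, −0.39, −0.33 and −0.06, of which −0.39 (adjusted p = 0.00705) and −0.33 (adjusted p = 0.0483) were called. With the replicate block, which the libraries of shNR4A3 at 10% CO2 allow, the value of 0.19 was called (adjusted p = 0.0176).

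MIR223HG fell with LPS in shNT cells at 10% CO2 (log2 fold change −0.68, SE 0.15, adjusted p = 0.00235). In shNT cells at 5% CO2 the value was −0.60 (SE 0.23, adjusted p = 0.118), which was called without basal replicate 3 (adjusted p = 0.00282) or LPS replicate 1 (adjusted p = 0.0211). In shNR4A2 cells, described without a test, the values were −0.97 (SE 0.13) at 5% CO2 and −0.82 (SE 0.12) at 10% CO2, and the libraries did not overlap. In shNR4A3 cells they were −0.26 (SE 0.33, adjusted p = 0.639) and −0.29 (SE 0.11, adjusted p = 0.0527). The second of these was called with the replicate block (adjusted p = 0.0208), with library size scaling (−0.54, adjusted p = 0.00128), and without basal replicate 2 (adjusted p = 0.0378) or LPS replicate 1 (adjusted p = 0.0169). Library size scaling also called the shNT value at 5% CO2 (−0.78, adjusted p = 0.026).

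**Figure D3:**
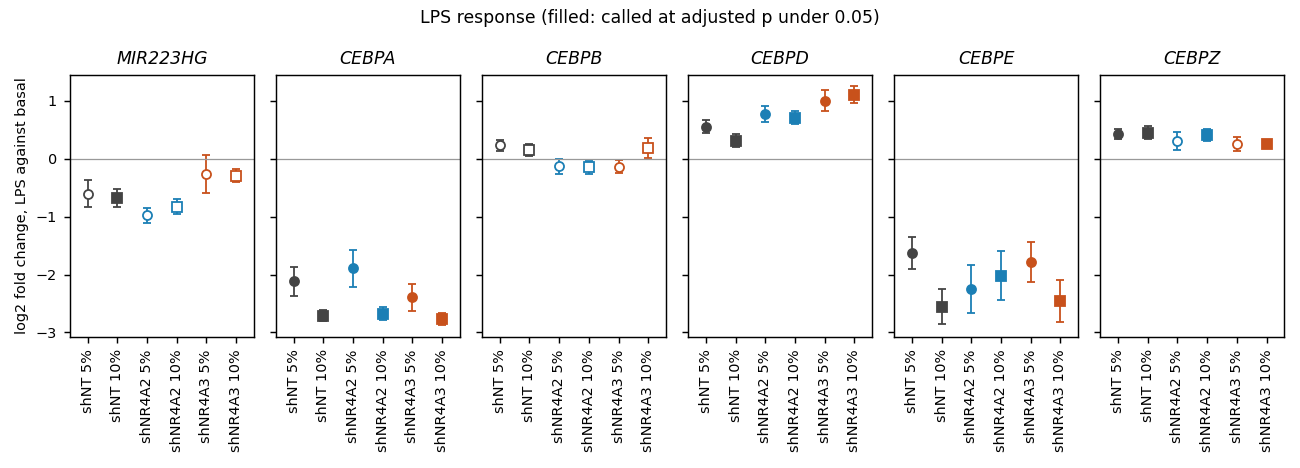
Log2 fold change with LPS (vertical axis, bars ± SE) for each gene, by line, at 5% CO2 (circles) and 10% CO2 (squares), where filled symbols are called at an adjusted p under 0.05 and MIR223HG in shNR4A2 cells was not tested. CEBPA lies between −2.77 and −1.89 and CEBPD between 0.31 and 1.11, while CEBPB stays within −0.14 and 0.24.

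The balance among the C/EBP genes was described as each gene's share of the summed TPM of CEBPA, CEBPB, CEBPD, CEBPE and CEBPG, the leucine zipper members besides DDIT3. In basal libraries CEBPA held 72.4% to 81.1% of this sum, and with LPS 21.5% to 55.9%. CEBPD held 6.6% to 11.2% in basal libraries and 20.2% to 49.8% with LPS. CEBPB went from 4.81% to 7.61% in basal libraries to 10.5% to 19.9% with LPS, and a share moves with the other genes. Its own mean TPM at 5% CO2 was 79.4 in basal and 80.2 in LPS-stimulated shNT cells. It went from 86.2 to 65.5 in shNR4A2 and from 84.0 to 65.8 in shNR4A3 cells. At 10% CO2 it went from 79.4 to 72.9, from 87.4 to 65.1 and from 77.2 to 72.5 TPM in the same order of lines. In LPS-stimulated cells at 10% CO2 the mean CEBPD share was 32.7% ± 3.83 in shNT, 42% ± 2.34 in shNR4A2 and 47.3% ± 2.48 in shNR4A3 cells (SD, n = 3 each). These are transcript shares and say nothing of protein.

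**Figure D4:**
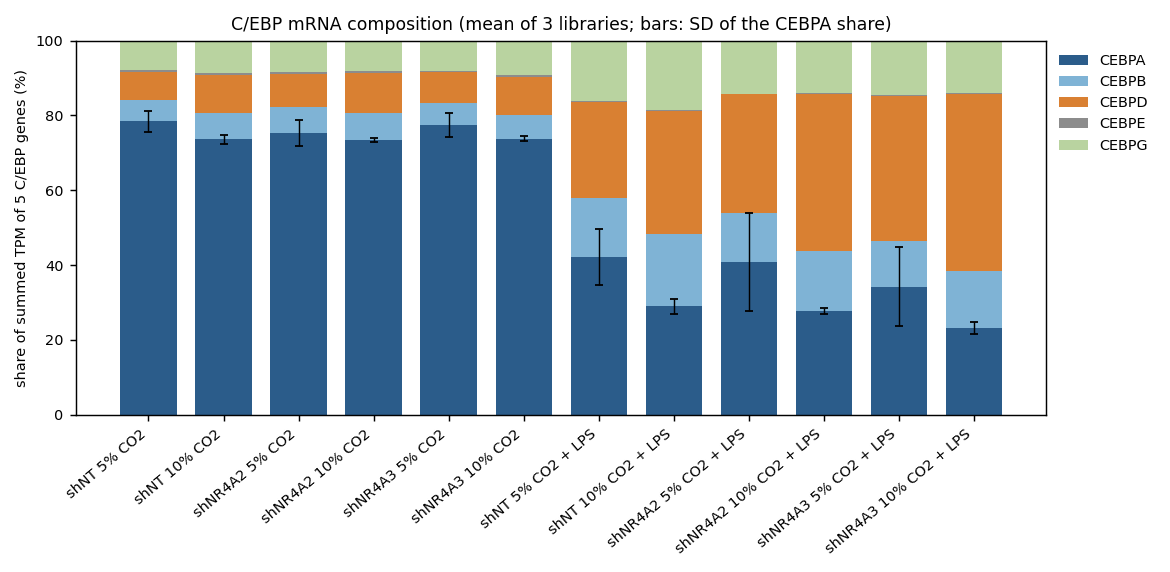
Mean share (percent, vertical axis) of the summed TPM of CEBPA, CEBPB, CEBPD, CEBPE and CEBPG in each condition as stacked bars, with error bars for the SD of the CEBPA share over 3 libraries. CEBPA makes up 78.4% ± 2.93 in basal shNT cells at 5% CO2 and 28.9% ± 2 in LPS-stimulated shNT cells at 10% CO2.

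The third comparison set each knockdown line against shNT cells at the same CO2 level and LPS state. CEBPD was higher in both knockdown lines with LPS at 10% CO2, CEBPE was lower in basal shNR4A2 cells at 10% CO2, and CEBPA gave no call. In shNR4A2 cells, where MIR223HG was not tested, the calls were 0 of 5 genes at 5% CO2 in the basal state (5.69% of all genes), 0 of 5 at 5% CO2 with LPS (6.21%), 1 of 5 at 10% CO2 in the basal state (7.95%) and 1 of 5 at 10% CO2 with LPS (18.9%). In shNR4A3 cells, in the same order, they were 0 (6.19%), 0 (5.41%), 0 (6.85%) and 1 (14.5%) of 6. Over these 44 tests edgeR called 3, DESeq2 called 3, and 11 had an unadjusted p under 0.05. In each single comparison, 3376 to 5706 of all 17720 genes had an unadjusted p under 0.05, and DESeq2 called 1132 to 2898 genes. The shNT libraries serve in the comparisons of both lines.

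CEBPD in LPS-stimulated cells at 10% CO2 was 118, 137 and 111 TPM in shNT, 173, 149 and 190 TPM in shNR4A2 and 261, 195 and 216 TPM in shNR4A3 cells. The shNT libraries were the lowest in TPM, whereas on the log2 CPM scale the shNT and shNR4A2 libraries overlapped and the shNT and shNR4A3 libraries did not. The log2 fold change against shNT was 0.45 in shNR4A2 (SE 0.13, adjusted p = 0.0364) and 0.85 in shNR4A3 cells (SE 0.16, adjusted p = 0.0103). The shNR4A2 call was lost without any 1 of 4 of the 6 libraries (adjusted p = 0.0897 to 0.145), replicates 1 and 3 of either line. At 5% CO2 with LPS the value in shNR4A3 cells was 0.74 (SE 0.18, adjusted p = 0.059), which was called without LPS replicate 2 of shNR4A3 (adjusted p = 0.000263) and with the replicate block (0.72, adjusted p = 7.32e-06). The value in shNR4A2 cells in that state was 0.31 (adjusted p = 0.246), called with the block (0.30, adjusted p = 0.00053) and without LPS replicate 2 of shNR4A2 (adjusted p = 0.0363). In the basal state CEBPD differed by 0.05 to 0.28, none called with all libraries, and the shNR4A3 value at 5% CO2 was called without replicate 2 of shNR4A3 (adjusted p = 0.0483).

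MIR223HG in shNR4A2 cells against shNT is a description, since the choice of this gene names no LPS state and rests on these libraries. The log2 fold changes were −0.22 at 5% CO2 and −0.36 at 10% CO2 in the basal state, with overlap, and −0.58 (SE 0.16) and −0.51 (SE 0.11) with LPS, without overlap. In shNR4A3 cells, where it was tested, MIR223HG had values of −0.25 to 0.15 against shNT and no call.

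CEBPE was lower in basal shNR4A2 than in shNT cells at 10% CO2 (log2 fold change −0.86, SE 0.26, adjusted p = 0.0412), where it was 3.12, 4.85 and 3.64 TPM against 5.65, 6.44 and 8.36 TPM. This call was lost without any 1 of 4 of the 6 libraries (adjusted p = 0.103 to 0.154), replicates 2 and 3 of shNT and 1 and 3 of shNR4A2. At 5% CO2 the basal value was −0.70 (SE 0.23, adjusted p = 0.101), from 4.95, 5.15 and 3.71 TPM in shNR4A2 and 7.80, 7.77 and 6.85 TPM in shNT cells. With the replicate block it was called (adjusted p = 0.0212), and so was the value with LPS at 5% CO2 (−1.32, adjusted p = 0.0297), which without the block was −1.31 (adjusted p = 0.147).

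CEBPA differed from shNT by at most 0.22 on the log2 scale in any state without a call. With the block, CEBPA in basal shNR4A2 cells at 5% CO2 was called (−0.22, SE 0.05, adjusted p = 0.00586). CEBPB in shNR4A2 cells with LPS was −0.23 at 5% CO2, called with the block (−0.24, adjusted p = 0.0242), and −0.19 at 10% CO2, called without LPS replicate 1 of shNR4A2 (adjusted p = 0.0459). Leaving out that library also called CEBPZ there (adjusted p = 0.0251). CEBPZ in LPS-stimulated shNR4A3 cells at 10% CO2 had a value of −0.20 (SE 0.07, adjusted p = 0.0613).

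Markers of monocytic cells differed between the lines as well. Of 8 such markers, 3 were called higher and none lower in basal shNR4A2 cells at 5% CO2, and the same numbers held in basal shNR4A3 cells. Of all genes, 5.69% and 6.19% were called in these 2 comparisons. Over all 8 comparisons with shNT, 2 to 5 of the markers were called higher, beside 5.41% to 18.9% of all genes called. The count of 5 came from shNR4A2 cells at 10% CO2 with LPS, where that share was 18.9%. The single marker called lower was FCGR1A in shNR4A3 cells at 10% CO2 with LPS (−0.29, adjusted p = 0.0143). LYZ, the lysozyme gene, was higher by 1.68 in shNR4A2 (SE 0.14, adjusted p = 3.31e-05) and 2.26 in shNR4A3 cells (SE 0.14, adjusted p = 8.53e-07) at 5% CO2. The summed TPM of the 8 markers was 952.5 to 1380 over the shNT libraries, 1616 to 1999 over the shNR4A2 libraries and 1730 to 2408 over the shNR4A3 libraries, and none of the 8 was at 0 in any library. Their part in the differences of the C/EBP genes was not tested.

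**Figure D5:**
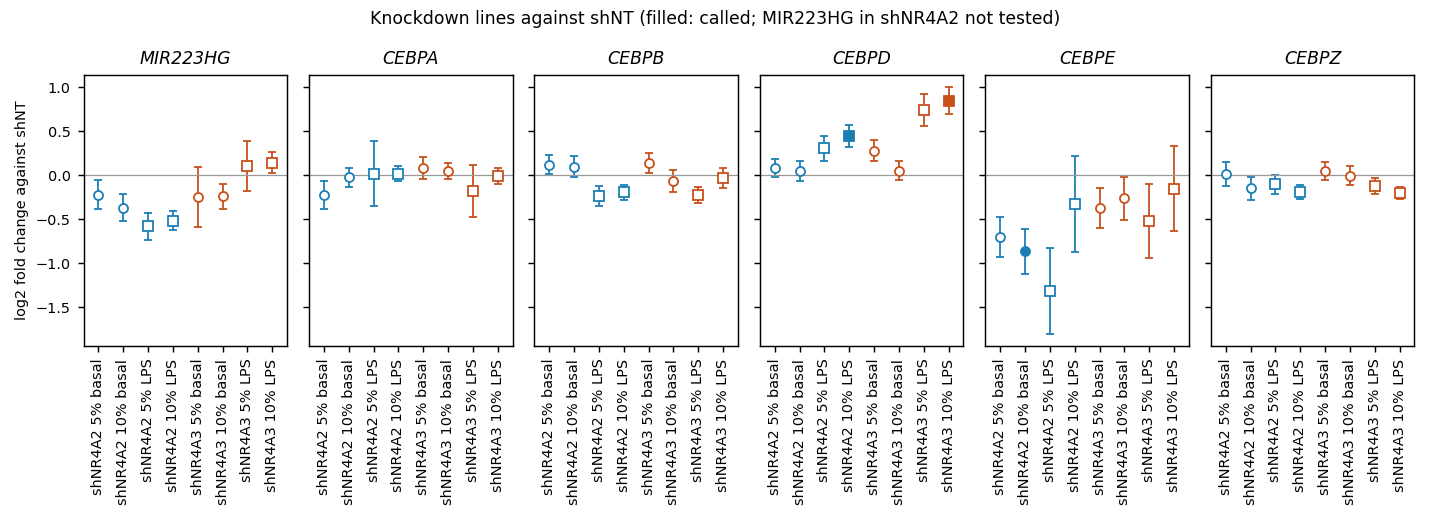
Log2 fold change of each knockdown line against shNT (vertical axis, bars ± SE) for the 6 genes at 5% and 10% CO2, in the basal state (circles) and with LPS (squares), where filled symbols are called at an adjusted p under 0.05 and MIR223HG in shNR4A2 cells was not tested. CEBPD reaches 0.85 in shNR4A3 cells at 10% CO2 with LPS and CEBPE lies below 0 in all 8 comparisons.

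Whether a response itself differed between lines or CO2 levels was tested as an interaction. None of 46 tests of the 6 genes was called by edgeR, 6 had an unadjusted p under 0.05, and DESeq2 called 1. Per interaction, between 370 and 1390 of all 17720 genes reached that level before adjustment. Genes with a DESeq2 call numbered from 0 to 99 per interaction. For the LPS response of knockdown lines minus shNT, the share of all genes called was 0% and 0.0451% in shNR4A2 and 0% and 0.198% in shNR4A3, at 5% and 10% CO2. For the LPS response at 10% minus 5% CO2 it was 0.0226% in shNT and 0% in shNR4A3 cells, and for the CO2 response of shNR4A3 minus shNT cells 0% in both states.

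The gene that DESeq2 called was CEBPD, for its LPS response in shNR4A3 minus shNT cells at 10% CO2. The difference was 0.79 on the log2 scale (SE 0.19, 95% interval 0.41 to 1.16, adjusted p = 0.187 by edgeR and 0.0171 by DESeq2), and it was called without LPS replicate 2 of shNT (adjusted p = 0.043). For CEBPA, the LPS response at 10% minus 5% CO2 was −0.59 in shNT cells (SE 0.25, adjusted p = 0.824) and −0.39 in shNR4A3 cells (SE 0.28, adjusted p = 0.94). A larger LPS fall of CEBPA at 10% CO2 was thus not established by these tests.

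Over the 36 libraries, log2 CPM of the genes, a level scaled for library depth, moved in opposite blocks. CEBPA and CEBPE had a Pearson r of 0.92, MIR223HG had 0.652 with CEBPA and 0.669 with CEBPE, and CEBPZ had −0.72 with MIR223HG and −0.758 with CEBPA. CEBPD and CEBPA had −0.794. These values mostly follow the conditions, which the libraries share, and after subtraction of each condition's mean they were 0.591, 0.413, 0.286, −0.305, −0.521 and −0.369 in the same order. CEBPB had its highest r with CEBPZ across conditions (0.201) and with CEBPD within conditions (0.631).

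Among all other genes tested, those most like MIR223HG over the 36 libraries were PBX2 (Pearson r 0.885), GIGYF1 (0.857), SFSWAP (0.852), DCAF8 (0.848) and PCIF1 (0.846). For CEBPA they were LYL1 (0.987), C16orf54 (0.981), NFE2 (0.98), PLEKHA2 (0.979) and SEMA4C (0.978). LYL1 and NFE2 encode blood cell transcription factors. For CEBPB the highest values were lower, with MST1R at 0.601 and PLD3 at 0.563 as the first and last of 5. All of these are descriptions over libraries that share the same treatments.

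Other genes of the C/EBP loci were examined from a list of 7, of which 5 were tested. CEBPA-DT, a divergent transcript beside CEBPA, fell with LPS in all 6 comparisons, by 1.59 (SE 0.13, adjusted p = 1.31e-07) in shNT cells at 5% CO2 to 2.41 (adjusted p = 1.24e-08) in shNR4A3 cells at 10% CO2 on the log2 scale. Its level was 24.2 to 49.2 TPM in basal libraries and 4.47 to 10.8 TPM with LPS. CEBPG, which dimerises with other C/EBP proteins, was called lower with LPS in 3 of 6 comparisons, shNR4A2 at 10% CO2 (−0.48) and shNR4A3 at 5% (−0.37) and 10% CO2 (−0.46).

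DDIT3, a C/EBP member induced by endoplasmic reticulum stress, was called lower with LPS in shNT cells at both CO2 levels (−0.35 and −0.56) and in shNR4A2 cells at 10% CO2 (−0.63). It also fell at 10% CO2 in the pooled LPS comparison (−0.27, SE 0.09, adjusted p = 0.0401). CEBPZOS and CEBPB-AS1 were called in no LPS comparison. None of the 5 was called against shNT in either knockdown line. The list's median log2 fold change with LPS was −0.475 to −0.182, and that of all genes −0.0145 to 0.00333.

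Of 11 regulators of C/EBP and miR-223 expression, 3 were called higher and 4 lower with LPS in shNT cells at 5% CO2, with a median of 0.131 beside −0.00131 for all genes. The share of all genes called there was 22.9%. MYC, a repressor of C/EBPα-driven differentiation, fell from 407 ± 37.0 to 52.3 ± 6.34 TPM (SD, n = 3 each) with a log2 fold change of −2.73 (SE 0.10, adjusted p = 5.78e-12). NFE2L2, a stress-response factor, rose by 2.53 (adjusted p = 4.72e-13), and GFI1, a repressor in granulocyte differentiation, fell by 2.31 (adjusted p = 2.6e-05). SPI1, which encodes PU.1, rose with LPS in all 6 comparisons, by log2 fold changes of 0.56 to 0.98, and was called for CO2 in none.

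Against shNT, SPI1 was higher in shNR4A3 cells by 0.37 (adjusted p = 0.0333) and 0.55 (adjusted p = 0.0244) at 5% CO2 without and with LPS, and by 0.74 (adjusted p = 5.29e-05) at 10% CO2 with LPS. In shNR4A2 cells it was called at 10% CO2 with LPS (0.46, adjusted p = 0.00266). With CO2 in the pooled model, 1 of the 11 regulators was called higher and 1 lower in the basal state and 3 higher and 2 lower with LPS, with medians of 0.00455 and −0.061. The shares of all genes called were 11.5% in the basal state and 22.8% with LPS. TRIB2, which promotes degradation of C/EBPα protein, was higher in basal shNR4A2 than in shNT cells at 5% CO2 (1.23, SE 0.20, adjusted p = 0.00391). It was the 1 regulator called higher there, and 3 were called lower, beside 5.69% of all genes called. Among those lower were MYC (−0.62, SE 0.09, adjusted p = 0.00199) and STAT3 (−0.41, SE 0.09, adjusted p = 0.0225).

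Transcripts known as miR-223 targets were read from a list of 19, all tested. With CO2 in the pooled model, none was called higher and 2 lower in the basal state (median −0.0427, all genes −0.000376), and 1 higher and 4 lower with LPS (median −0.0182, all genes 0.00895). These are 2 and 5 of 19, beside 11.5% and 22.8% of all genes called. NLRP3, an inflammasome sensor, fell at 10% CO2 by 0.26 in the basal state (SE 0.06, adjusted p = 0.0124) and by 0.55 with LPS (SE 0.09, adjusted p = 0.0007). Its level in LPS-stimulated shNT cells was 66.0 ± 12.6 TPM at 5% CO2 and 39.6 ± 5.57 TPM at 10% CO2 (SD, n = 3 each). In the pooled model the changes of MIR223HG and NLRP3 at 10% CO2 were both decreases, and a link between them was not tested. In basal replicate 3 of shNT and of shNR4A3 cells, MIR223HG was higher at 10% than at 5% CO2. Against shNT, 1 target was called higher and 5 lower in shNR4A2 cells with LPS at 10% CO2 (median −0.0283, all genes 0.00166), where 18.9% of all genes were called.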

How the data were processed

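RNA sequencing of polyadenylated RNA was made in 36 libraries of THP-1 cells. The submitters' processing notes name Trimmomatic 0.36, STAR 2.5.2b, featureCounts of Subread 1.5.2 and GRCh38. The deposited values are whole-number counts of reads per gene and library, not normalised by the authors; the annotation release and strand setting are not given in the sources used here. Of 57500 gene identifiers, 56410 (98.1%) matched a symbol.

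Counts were fitted with edgeR 4.0.16 (R 4.3.3) by its quasi-likelihood test with robust dispersion and TMM scaling, on the libraries of each comparison alone, after filterByExpr (minimum count 10, minimum total 15). This left 17720 genes, and p-values were adjusted over all of them by the Benjamini-Hochberg method, with calls at an adjusted p under 0.05. The study's methods name DESeq2, which was run as an alternative (version 1.42.0). The pooled CO2 comparison held shNT and shNR4A3 libraries with the line as a term. SE is the log2 fold change divided by the square root of its F statistic. TPM values were derived from the counts and each gene's exonic length. Overlap between groups was read from log2 CPM with a prior count of 2. The test was checked on simulated counts with known changes.

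Samples were grouped by their labels. The 6 genes and the gene lists were chosen with earlier results of these data known. Named list genes are the 3 called genes of a list with the largest absolute change and no overlap between groups in 5 stated comparisons, together with SPI1 and the genes of the C/EBP loci; other genes named were chosen after their values were seen. The counts of libraries in the same condition varied beyond sampling noise (chi-square per degree of freedom 6.62 to 29.6), so each counted as 1 sample. Library depth limits CEBPE most, at 3 to 78 reads.

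Same-numbered libraries deviated together, with every correlation of their deviations over 0.1, in 7 of 20 comparisons (0.111 to 0.314). This pairing comes from the data and the shared numbers, not from a statement in the labels. In those 7 comparisons, blocked values stand beside the results they change. MIR223HG was given without a test in every comparison with shNR4A2 libraries, which is wider than the design planned, where its comparison with shNT under LPS was to be tested. Alternatives were other scalings, no filter, the replicate block, DESeq2, a single fit to all libraries and leaving out each library.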

Additional observations from a re-analysis of the deposited data

How the results depend on the processing

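Across the alternatives the LPS calls were stable in number, with 23 of 34 in the main test and 21 to 29 under the others, 22 to 24 with a library left out. The 29 came with the replicate block. Among all genes, each LPS comparison gave 3220 to 7456 calls in the main test and 4904 to 9244 with the block. The CO2 calls within single lines were 2 of 24, and became 7 without a filter, 6 with the replicate block and 7 with DESeq2, and 1 to 3 with a library left out. Among all genes, each of these comparisons gave 109 to 1452 calls in the main test. Without a filter there were 334 to 2028, with the block 144 to 1568 and with DESeq2 358 to 1801. In the pooled CO2 comparisons they were 6 of 12, 5 or 6 under other settings and 4 to 7 with a library left out, and the basal MIR223HG call was lost with the replicate block (adjusted p = 0.0946) and without a filter. The knockdown calls were 3 of 44, became 11 with the replicate block and 3 or 4 under other settings, and 2 to 4 with a library left out. Calls among all genes rose with the block as well, from 958 to 3344 per comparison in the main test to 2107 to 6161. The interaction calls were 0 of 46, 2 without a filter, 1 with DESeq2 and 0 to 1 with a library left out. Each interaction gave 0 to 35 calls among all genes in the main test, 0 to 124 without a filter and 0 to 99 with DESeq2. The causes of these shifts were not tested. In the 7 comparisons where same-numbered libraries deviated together, the replicate block changed no call beyond those given beside the results. In the others the libraries share only a number, and there the block gained 10 calls of these genes and lost 3. No called value changed sign under any alternative run, and 129 values called under neither setting did. Of 72 condition levels, 27 moved by over 1 SD when TPM was replaced by CPM with TMM factors, by up to 17.1%. Sequencing depth limits CEBPE and CEBPB-AS1, whose LPS values rest on few reads.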

Other observations

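Genes known as C/EBP targets in myeloid differentiation were higher in the knockdown lines where they were called, with few exceptions. Of 17 listed, 15 were tested, and against shNT 4 were called higher and none lower in basal shNR4A2 cells at 5% CO2 (median log2 fold change 0.326, all genes 0.00152), and 3 higher and 1 lower in basal shNR4A3 cells (median 0.531, all genes 0). The shares of all genes called were 5.69% and 6.19%. This list shares CD14, LYZ, ITGAM and CSF1R with the monocytic markers. LYZ, CD14 and CSF1R were called higher in these shNR4A2 cells and so count in both lists. CSF1R, the receptor for macrophage colony-stimulating factor, was higher by 0.77 in shNR4A2 (SE 0.13, adjusted p = 0.00434) and 1.02 in shNR4A3 cells (SE 0.12, adjusted p = 9.97e-05). CD14, the LPS co-receptor, was higher by 1.15 in shNR4A2 cells (SE 0.25, adjusted p = 0.0165). CTSG, a granule protease gene, was lower by a log2 fold change of −1.56 in shNR4A3 cells (SE 0.24, adjusted p = 0.0144). With LPS in shNT cells at 5% CO2 none of this list was called higher and 2 lower, S100A8 (−0.59, adjusted p = 0.0436) and IL6R (−0.59, adjusted p = 0.000102), with a median of −0.0877, where 22.9% of all genes were called. Over the 6 LPS comparisons 0 to 3 were called higher and 1 to 3 lower, beside 18.2% to 42.1% of all genes called. The medians were −0.161 and −0.0877 in shNT cells and 0.00954 to 0.0594 in the knockdown lines. At 10% CO2 in the pooled LPS comparison 2 were called lower, CSF1R (−0.51, adjusted p = 0.019) and IL6R (−0.36, adjusted p = 0.00223), and none higher, with a median of −0.0693. The share of all genes called in that comparison was 22.8%.

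The acute-phase and cytokine targets of C/EBP proteins rose with LPS. Of 13 listed, 11 were tested, and in shNT cells at 5% CO2 10 were called higher and none lower, HP alone giving no call. The share of all genes called there was 22.9%. IL1B rose from 24.3 ± 4.21 to 4112 ± 712 TPM (SD, n = 3 each; log2 fold change 7.63, adjusted p = 9.58e-11). No median is given, since IL6 and CSF3 were at 0 in every basal shNT library at 5% CO2. At 10% CO2 in the pooled LPS comparison 3 of the 11 were called higher and none lower (median 0.298, all genes 0.00895), where 22.8% of all genes were called. The 3 were IL12B (0.84, SE 0.20, adjusted p = 0.0143), PTX3 (0.79, SE 0.20, adjusted p = 0.0192) and TNFAIP6 (0.73, SE 0.21, adjusted p = 0.0339). In the pooled basal comparison, where 11.5% of all genes were called, CXCL8, a neutrophil chemokine gene, was the single call (−0.64, SE 0.19, adjusted p = 0.0432). Of the 19 miR-223 targets, 2 were called higher and 3 lower with LPS in shNT cells at 5% CO2 (median 0.0713), beside 22.9% of all genes called. LMO2 at −0.85 and FOXO1 at −0.85 were among those that fell. Against shNT, IGF1R, another of these targets, was lower in basal cells at 5% CO2 in shNR4A2 (−1.05, adjusted p = 0.00186) and shNR4A3 (−1.14, adjusted p = 0.000747), and EPB41L3 was higher (1.36 and 1.76).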
